A study of Capsella grandiflora and Capsella rubella with 18 samples.

Results

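The genes described here were very abundant in leaves and close to absent from flower buds in the crucifer genus Capsella. They were selected on their mean levels alone: a gene row was taken where the mean of the 10 leaf libraries was at least 100 FPKM and the mean of the 8 bud libraries was at most 1/50 of that leaf mean. FPKM counts sequenced fragments relative to the length of the transcript and the size of the library. The rule was met by 119 of the 19350 rows, or 119 of the 1775 rows with a leaf mean of at least 100 FPKM. Since these values chose the genes, the contrast between bud and leaf is described below and not tested. The bud libraries came from mixed-stage flower buds of 4 plants of the self-compatible species C. rubella and of 4 plants of the outcrossing species C. grandiflora. The leaf libraries came from maturing leaves of 10 C. grandiflora plants, all other than the plants sampled for buds. All plants grew in a greenhouse under the same conditions. Most C. grandiflora plants were raised from seed collected in the wild in Greece, and 1 bud and 1 leaf plant were F1 offspring of crosses between Corfu plants. Pili was the source of 1 bud and 1 leaf plant too. The C. rubella plants came from Greece and Italy, and 1 of them belonged to a line inbred in the greenhouse. C. rubella leaf was not analysed here, so what is said of leaf holds for C. grandiflora.

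A maturing leaf is a photosynthetic organ, and nuclear genes for light harvesting, carbon fixation and defence are known to be among its most strongly expressed. A flower bud holds dividing and differentiating tissue of sepals, petals, stamens and carpels, with green tissue making up only a part of it. Genes that arose by local duplication often stay side by side on a chromosome and can keep similar expression. The deposited table gives an ID but no name for each gene, and no annotation was used here. Module genes are therefore given by ID with their position on the C. rubella build CR v1 JGI. No function is given to any of them, and leaf or floral marker genes could not be looked up to check the tissues. In bulk tissue, fewer cells of a type and less RNA per cell cannot be told apart.

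The columns of the 2 tissues differed in their FPKM sums, and how they were scaled is not stated. The FPKM sums were 576725 to 625873 in C. rubella buds, 589667 to 657140 in C. grandiflora buds and 1307609 to 1858148 in leaf, while the column medians were 10.5 to 11.0, 10.2 to 10.7 and 7.20 to 10.9 FPKM. In C. rubella bud 1 and C. grandiflora bud 1 the value 0.5 stands where the other bud columns have 0, in 1137 and 1023 rows. Read totals are not given, so the depth of each library is unknown. Tissue and the scaling of the columns cannot be told apart.

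The module held many of the most abundant leaf messages. Of the 20 rows with the highest leaf mean, 12 belonged to it, as did 49 of the 170 rows with a leaf mean of at least 1000 FPKM. Its bud means ranged from 0.191 to 363 FPKM with a median of 6.04, and its leaf means from 115 to 32915 FPKM with a median of 610. The bud mean was 0.0224% to 1.99% of the leaf mean, with a median of 0.847%. Over the other 1656 leaf-abundant genes that median was 25.7%. In buds 18 module genes had a mean under 1 FPKM and 10 had a mean of at least 100 FPKM, so "nearly absent" is a statement relative to leaf. None was listed at 0 in all 8 bud libraries. For 113 genes the lowest leaf library stood above the highest bud library. For the other 6, at least 1 leaf library was no higher than the highest bud library. In all, 79 genes reached 100 FPKM in every leaf library.

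**Figure D1:**
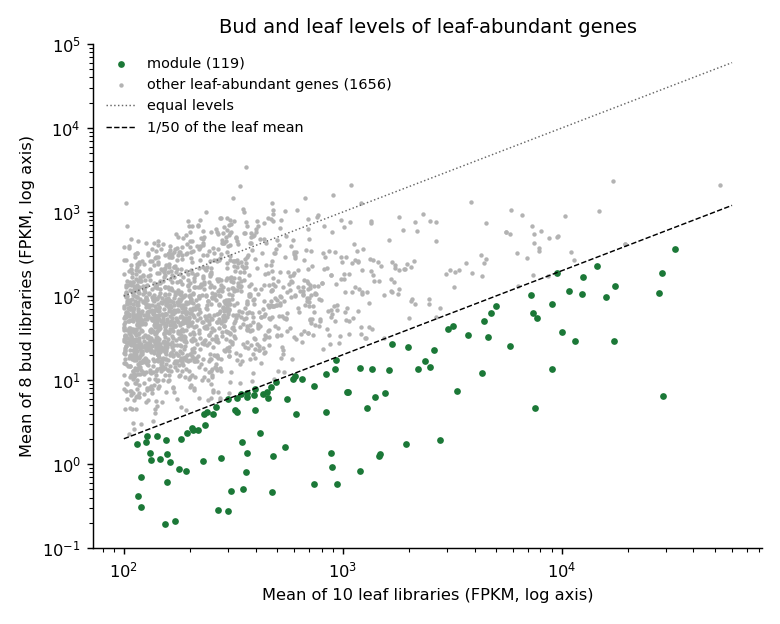
Mean level over the 8 bud libraries (vertical, FPKM, log axis) against the mean over the 10 leaf libraries (horizontal, FPKM, log axis). Green points are the 119 module genes, grey points the other 1656 genes with a leaf mean of at least 100 FPKM, the dashed line is 1/50 of the leaf mean and the dotted line marks equal levels. The green points lie under the dashed line by construction and extend to 32915 FPKM in leaf.

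Together the 119 genes made up a small part of the FPKM sum in buds and a large, uneven part of it in leaf. Their share was 0.607%, 0.630%, 0.476% and 0.597% in C. rubella buds 1 to 4 and 0.305%, 0.329%, 0.531% and 0.409% in C. grandiflora buds 1 to 4. The ranges of the 2 species overlap, since C. grandiflora bud 3 lies above C. rubella bud 3. In leaf the share was 25.1 ± 8.24% (SD, n = 10), from 11.2% in leaf 4 to 37.1% in leaf 10. The 10 genes with the highest leaf mean held 52.3% of the module's own sum over the leaf libraries. The highest leaf FPKM sum was 1.42 times the lowest over all rows and 1.23 times the lowest once the module was taken out.

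**Figure D2:**
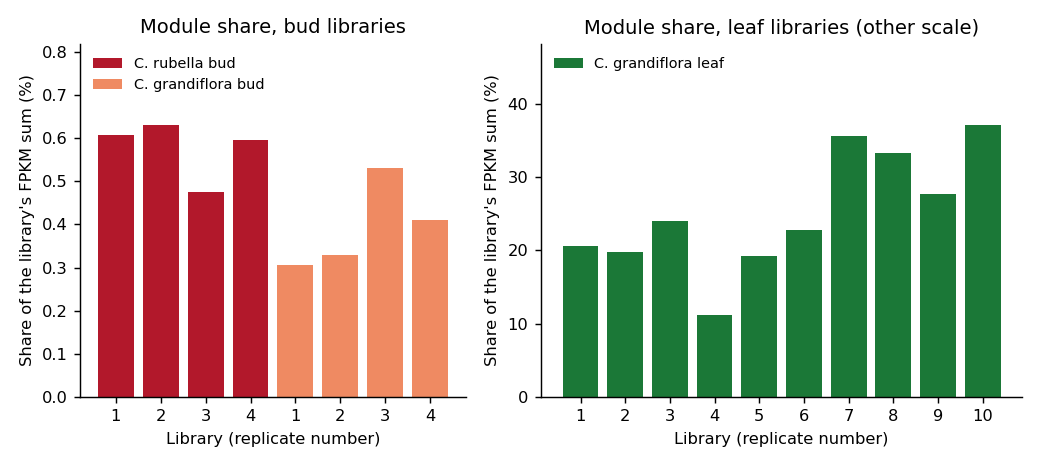
Share of each library's FPKM sum that the 119 module genes take (vertical, percent, from 0), for the 8 bud libraries (left) and the 10 leaf libraries (right, on another scale), numbered by replicate. Bud bars lie between 0.305% and 0.630%, leaf bars between 11.2% and 37.1%.

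The module gene with the highest leaf mean was Carubv10021122m (scaffold 2, 13402358 to 13406425). It had 384, 418, 448 and 346 FPKM in C. rubella buds and 340, 356, 287 and 327 FPKM in C. grandiflora buds. In leaf its lowest, median and highest values were 14655, 31274 and 46818 FPKM. The leaf libraries differed by a factor of 3.19, and all of them lay far above every bud library. The module gene with the lowest bud level relative to leaf was Carubv10021234m (scaffold 2, 12113473 to 12114011). It had 19.9, 2.18, 2.06 and 4.66 FPKM in C. rubella buds and 2.79, 5.22, 5.38 and 10.03 FPKM in C. grandiflora buds. In leaf it had a lowest value of 1726, a median of 7792 and a highest value of 121431 FPKM, a factor of 70.3 between libraries. Its bud libraries overlap between the species, and C. rubella bud 1 is the highest of them.

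Of the 15 genes with the highest leaf means, from 9059 to 32915 FPKM, 7 lay in runs of neighbours described below and 8 did not. The one with the smallest leaf SD on the log2 scale was Carubv10024372m (scaffold 4, 9210669 to 9211695), with 11445 ± 2299 FPKM in leaf (SD, n = 10). Its buds averaged 29.9 ± 19.9 FPKM in C. rubella and 29.0 ± 19.8 FPKM in C. grandiflora (SD, n = 4 each), so that it was even between leaves and uneven between buds. Carubv10015040m (scaffold 3, 5289445 to 5290906) also lay outside the runs and had leaf values from 2029 FPKM in leaf 2 to 30527 FPKM in leaf 8. Its buds averaged 197 ± 55.1 FPKM in C. rubella and 141 ± 46.4 FPKM in C. grandiflora (SD, n = 4 each). At the low end of the bud range, Carubv10005101m (scaffold 7, 15025597 to 15027763) had the lowest bud mean, 0.191 FPKM, beside a leaf mean of 154 FPKM. Its highest bud value, 0.5 in C. grandiflora bud 1, stands in a column that has 0.5 in place of 0. This gene was picked out after its values were seen.

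Near the threshold the levels form no gap. The 3 genes just inside it were Carubv10010637m (scaffold 1, 17238898 to 17240024), Carubv10017894m (scaffold 5, 7534072 to 7542617) and Carubv10018124m (scaffold 5, 204386 to 205689), with bud means at 1.97%, 1.98% and 1.99% of leaf. The 3 just outside were Carubv10012481m, Carubv10010058m and Carubv10010620m, at 2.0001%, 2.08% and 2.09%. Carubv10012481m had a bud mean of 173 FPKM and a leaf mean of 8665 FPKM, much like Carubv10017894m with 188 FPKM in buds and 9476 FPKM in leaf. In all, 46 genes, these 3 included, had a bud mean between 1/50 and 1/30 of the leaf mean.

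Position was not part of the rule, and some module genes were neighbours. No test was made on these counts. Rows were ordered by their start on each scaffold, and 21 of the 119 genes (17.6%) had another module gene within 3 rows. Of the other 1656 leaf-abundant genes, 53 (3.20%) had a module gene within 3 rows. The 21 genes formed 6 runs, of 6, 6, 3, 2, 2 and 2 genes. By scaffold, the module held 11.7% of the leaf-abundant genes of scaffold 2, the highest share among the 8 main scaffolds, and 4.40% of those of scaffold 6, the lowest. Module genes also spanned short stretches. Among rows with coordinates of their own, the median span from start to end, introns included, was 1336 bp for 95 module genes, 1929 bp for 1392 other leaf-abundant genes and 2301 bp for all 16854 rows.

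The first long run consisted of 6 consecutive rows on scaffold 2 (12108502 to 12123298), a stretch of 14797 bp, with spans of 336 to 617 bp. In order they were Carubv10021237m, Carubv10021298m, Carubv10021234m, Carubv10021232m, Carubv10021235m and Carubv10021662m. Summed over the 6 rows, buds had 325, 90.6, 147 and 209 FPKM in C. rubella and 106, 274, 296 and 330 FPKM in C. grandiflora. The leaf sum was lowest in leaf 2 (12385 FPKM) and highest in leaf 7 (255852 FPKM), a factor of 20.7. Leaves 7, 8 and 9 were the 3 highest libraries for 5 of the 6 rows, with sums of 255852, 141453 and 170459 FPKM, and leaf 3 followed with 80702 FPKM. The other 6 leaf sums lay between 12385 and 31023 FPKM. Across the module, leaves 7, 8 and 9 were the 3 highest libraries for 10 genes (8.40%), against 64 of the other leaf-abundant genes (3.86%).

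Within this run 1 row kept most of the bud signal. Carubv10021235m (scaffold 2, 12120638 to 12121142) had 271, 79.8, 131 and 183 FPKM in C. rubella buds and 87.7, 234, 255 and 268 FPKM in C. grandiflora buds. Its leaf mean was 28827 ± 21927 FPKM (SD, n = 10). Its neighbour Carubv10021234m had nearly the same leaf mean, 29162 ± 40810 FPKM (SD, n = 10), and a bud mean of 6.53 FPKM against 189 FPKM for Carubv10021235m. The bud mean was thus 0.0224% of leaf in one row and 0.655% in the other. The rows directly outside the run were unlike it: Carubv10019714m had a mean of 11.0 FPKM in buds and 21.5 FPKM in leaf, and Carubv10019810m had 7.81 FPKM in buds and 18.8 FPKM in leaf.

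The second run was of 3 consecutive rows on scaffold 3 (13872462 to 13880826): Carubv10014907m, Carubv10014903m and Carubv10014906m. Their summed level was 172, 348, 203 and 270 FPKM in C. rubella buds and 249, 204, 878 and 404 FPKM in C. grandiflora buds. C. grandiflora bud 3 was the highest of the 8 for all 3 rows, at 270, 273 and 335 FPKM. In leaf the sum was lowest in leaf 5 (6209 FPKM) and highest in leaf 10 (172706 FPKM), a factor of 27.8, and leaf 10 was the highest library for all 3 rows. Leaves 4 and 5 were the 2 lowest by sum. The row before the run, Carubv10016370m, had 28.3 FPKM in buds and 311 FPKM in leaf (9.09%). A gene on another scaffold also had C. grandiflora bud 3 and leaf 10 as its highest libraries and leaves 4 and 5 as its lowest leaves. Carubv10024304m (scaffold 4, 2674276 to 2675495) had 11.9, 14.2, 12.7 and 16.6 FPKM in C. rubella buds and 33.6, 26.5, 85.4 and 32.9 FPKM in C. grandiflora buds. Its leaf values ran from 1880 FPKM in leaf 4 through a median of 16086 FPKM to 60504 FPKM in leaf 10. This likeness was picked out after the values were seen, and how many other genes share it was not counted.

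The third run lay on scaffold 7 (17131706 to 17176849), with 6 module genes among 7 consecutive rows: Carubv10006002m, Carubv10006003m, Carubv10007875m, Carubv10006008m, Carubv10006117m and Carubv10005712m. The row between them, Carubv10006071m, had a bud mean of 66.1 FPKM and a leaf mean of 856 FPKM (7.72% of leaf) and so missed the rule. The next 2 rows after the run were also abundant in leaf and kept more of their level in buds. Carubv10005988m had 51.5 FPKM in buds and 1034 FPKM in leaf (4.98%), and Carubv10007166m had 682 FPKM in buds and 7287 FPKM in leaf (9.36%). The 6 module genes summed to 786, 744, 218 and 701 FPKM in C. rubella buds and to 160, 41.3, 167 and 228 FPKM in C. grandiflora buds. Of these, C. rubella bud 3 lay below C. grandiflora bud 4, and the other 3 C. rubella sums exceeded every C. grandiflora sum. In leaf the sum ran from 8334 FPKM in leaf 4 to 148939 FPKM in leaf 10. Leaf 10 was the highest library for 4 of the 6 genes. Carubv10007875m (17152008 to 17152781) varied most within the run in absolute terms, from 215 FPKM in leaf 2 through a median of 8189 to 74954 FPKM in leaf 10.

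**Figure D3:**
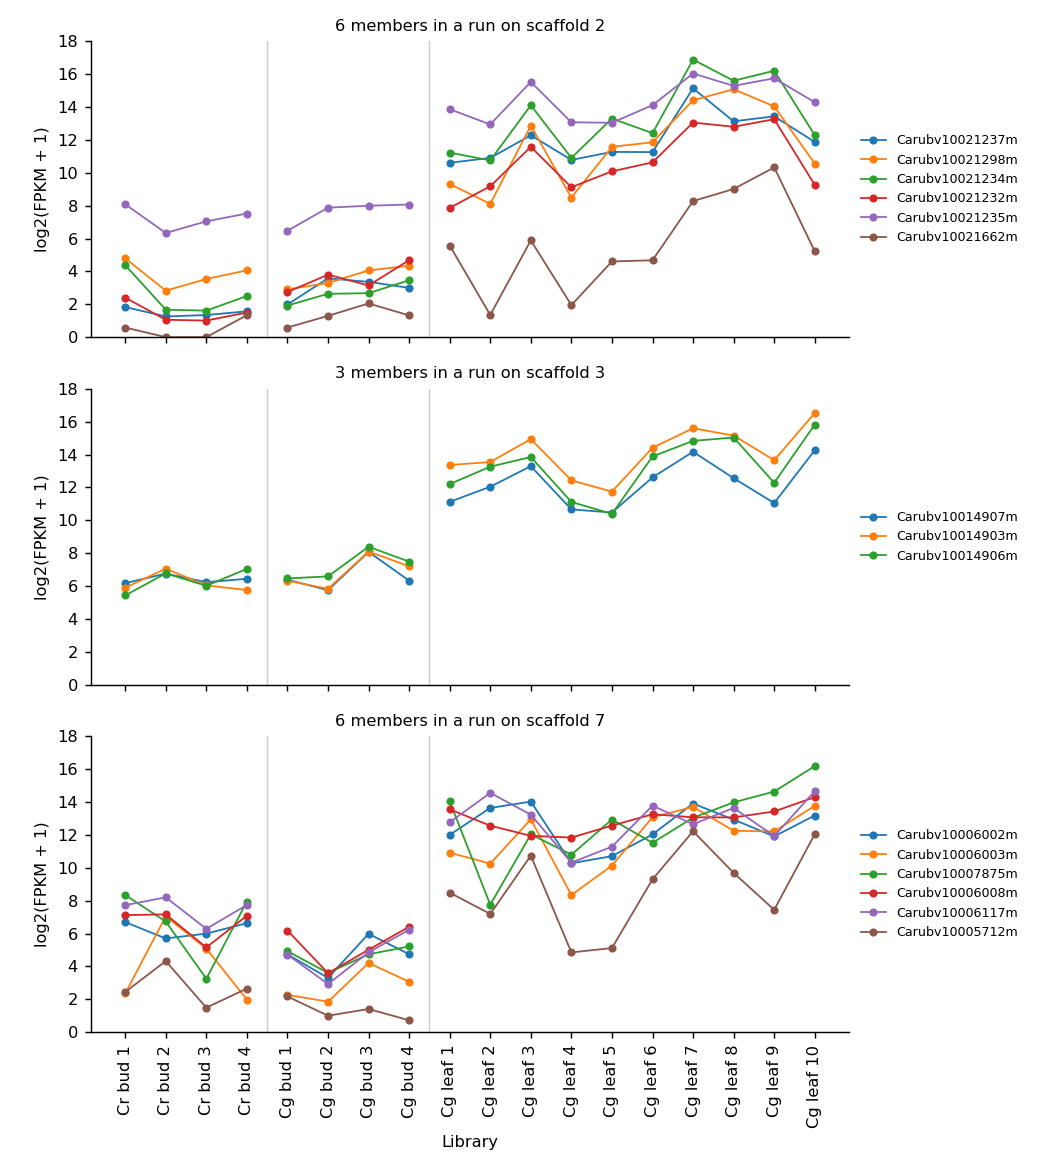
Level of each gene in the 3 longest runs (vertical, log2(FPKM + 1)) in each library (horizontal), with 4 C. rubella buds, 4 C. grandiflora buds and 10 C. grandiflora leaves from left to right. Each line is 1 gene, broken between groups. In the scaffold 2 run most lines peak at leaves 7 to 9, and in the scaffold 3 run all 3 lines peak at leaf 10 and, within C. grandiflora buds, at bud 3.

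The other runs were pairs. On scaffold 2 (11766655 to 11774125) the pair Carubv10020946m and Carubv10020799m summed to 0.540 ± 0.423 FPKM in C. rubella buds, 1.03 ± 0.313 FPKM in C. grandiflora buds (SD, n = 4 each) and from 141 to 5552 FPKM in leaf. In C. rubella bud 1, Carubv10020946m was listed at 0.5, the value that stands in place of 0 in that column. The sum of the pair in leaf 3 (5552 FPKM) was well above the next highest, 1427 FPKM in leaf 6. On scaffold 4 (13282354 to 13286864) the pair Carubv10023857m and Carubv10023855m summed to at most 4.28 FPKM in buds and from 495 to 4343 FPKM in leaf. On scaffold 5 (2560291 to 2564557) the pair Carubv10017751m and Carubv10017845m summed to 24.5 to 68.9 FPKM in buds and to 2080 to 7451 FPKM in leaf. Whether neighbouring rows are similar in sequence was not examined. If they are, how their reads were divided between rows would affect the level of single rows more than the sum of a run.

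Module genes had a larger median spread between leaf plants than other abundant leaf genes did. Taking the SD of log2(FPKM + 1) across the 10 leaf libraries for each gene, the median was 0.79 for the 119 genes and 0.47 for the other 1656. The rule did not use this SD, but it used the leaf mean, which a single high library can raise. No test was made. An SD above 0.67, the third quartile of the others, was found for 76 module genes (63.9%). An SD of at least 2 was found for 12 module genes (10.1%) and for 15 of the others (0.906%), and an SD under 0.5 for 20 (16.8%) and 910 (55.0%). The difference was present at both levels of abundance. With a leaf mean of 1000 FPKM or more the median SD was 0.93 over 49 module genes and 0.49 over 121 others, and below that it was 0.77 over 70 and 0.47 over 1535. Genes in runs had a median SD of 1.45 (21 genes) and the rest of the module 0.69 (98 genes).

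**Figure D4:**
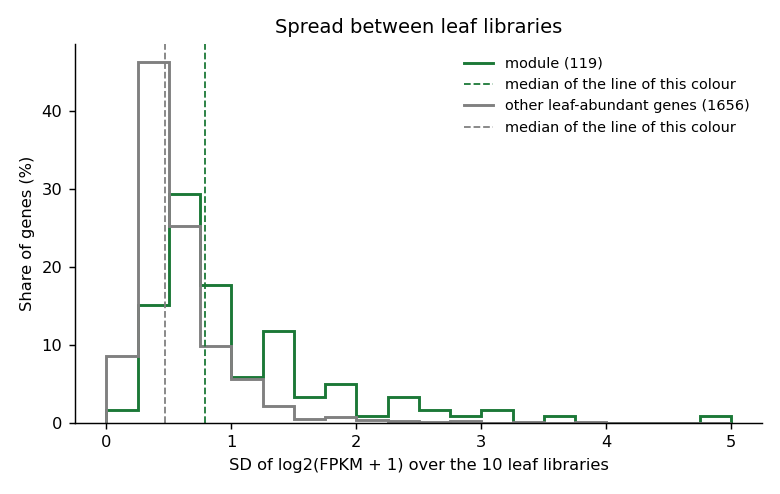
Distribution of the SD of log2(FPKM + 1) over the 10 leaf libraries (horizontal) for the 119 module genes (green) and the other 1656 leaf-abundant genes (grey), as a share of each set (vertical, percent). Dashed lines mark the medians, 0.79 and 0.47.

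A few module genes were near 0 in some leaves and very high in others. Carubv10010755m (scaffold 1, 10360579 to 10361669) had the largest SD, 4.90. It had 3.19, 14.1, 0 and 1.56 FPKM in C. rubella buds and 16.5, 11.7, 0.68 and 9.35 FPKM in C. grandiflora buds. In leaf it was listed at 0 in leaves 3, 7 and 8, at 5.02 in leaf 9 and 15.7 in leaf 10, and at 164, 261, 731, 3432 and 5998 FPKM in leaves 5, 4, 1, 2 and 6. Its leaf mean of 1061 FPKM thus rested on a few plants, and its bud and leaf ranges overlap. Carubv10021136m (scaffold 2, 1403080 to 1404123) ran from 1.01 FPKM in leaf 8 to 6892 FPKM in leaf 3, with a median of 191 FPKM. Carubv10027472m (scaffold 8, 2210021 to 2210647) had 1264 FPKM in leaf 3, at most 24.8 FPKM in the other 9 leaves and 0 in 4 of them. It met the rule through that 1 library. At the other end, Carubv10010440m (scaffold 1, 6501941 to 6503843) had the smallest SD, 0.20. It had 6.09, 6.07, 7.06 and 5.70 FPKM in C. rubella buds and 6.55, 4.07, 6.14 and 6.62 FPKM in C. grandiflora buds, and its leaf values lay between 261 and 414 FPKM with a median of 324. Carubv10018124m (SD 0.22) and Carubv10014138m (SD 0.28; scaffold 3, 13736036 to 13737463) were nearly as steady.

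Leaf libraries differed in how often they were at an extreme. Leaf 8 was the highest library for 27 module genes (22.7%) and for 14.1% of the other leaf-abundant genes. Leaf 10 was the highest for 16 (13.4%) and for 4.47% of the others. Leaf 4 was the lowest for 35 (29.4%) and for 21.7% of the others. It was the highest for 2 module genes (1.68%) but for 23.3% of the others. The median deviation of module genes from their own leaf mean was lowest in leaf 4 at -0.69 and highest in leaf 8 at 0.58 on the log2 scale. For the other genes the values in those libraries were -0.07 and 0.07. In leaf 4 the other genes were thus often at an extreme in either direction, with a median near 0, while the module's median was low.

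For some module genes another row, with an ID of its own, has the same start and end. This held for 24 of the 119 (20.2%), 15.9% of the other leaf-abundant genes and 12.9% of all rows. Whether such rows are parts of 1 gene or separate genes that overlap was not examined. How fragments were divided between them is unknown. None of the 26 partner rows belonged to the module. In 11 of the 24 loci a partner had a higher bud mean than the module gene. Both loci given next were picked out after their values were seen. At the locus of Carubv10009560m (scaffold 1, 11927076 to 11930989), the module row had a bud mean of 1.83 and a leaf mean of 347 FPKM, and its partner Carubv10011379m had 52.3 and 81.9 FPKM. The 2 rows sum to a bud level of 12.6% of leaf. At the locus of Carubv10021850m (scaffold 2, 10162335 to 10166532), the partner Carubv10020004m held 57.8 FPKM in buds and 43.5 FPKM in leaf, beside 11.3 FPKM in buds and 606 FPKM in leaf for the module row. With the rows of each locus summed, 11 of the 24 still met the rule and 13 did not, and the bud sum was 0.398% to 16.0% of the leaf sum. For these 13 genes the near absence from buds holds for the module row and not for the sum of all rows with its coordinates. Such a sum may add up different genes, so it does not show that the module gene itself is present in buds. The 3 longest runs hold no row with shared coordinates, while Carubv10021122m does share its locus and met the rule after summing (1.15%).

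The series compares buds of the selfing C. rubella with buds of the outcrossing C. grandiflora, and this contrast was not used by the rule. The residual bud level of module genes differed between the species in both directions, more often upward in C. rubella. The rows of both species carry coordinates of the C. rubella build. Species and how well reads match that build therefore cannot be told apart in this contrast. Levels were compared as log2(FPKM + 1) with limma over all 16923 genes that had at least 1 FPKM in at least 4 of the 8 bud libraries, with Benjamini-Hochberg adjustment. Of the 119 genes, 24 were below this filter and 95 were tested. Among the 95, 23 were higher and 5 lower in C. rubella at an adjusted p below 0.05. Over all tested genes the share called higher was 11.9% and the share called lower 12%. The 23 are 24.2% of the tested module genes, and among the other leaf-abundant genes 24.1% were called higher. The 5 are 5.26%, and among the others 3.32% were called lower. The module's share of higher calls is therefore near that of abundant leaf genes in general. A gene can pass the filter through 1 species alone. Without the filter 25 of the 119 (21.0%) were called higher and 6 (5.04%) lower, beside 10.2% and 10.6% of all rows. Unfiltered calls were not counted for the other leaf-abundant genes.

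Without the filter, the difference of the 119 genes ranged from -2.10 to 3.04 on the log2 scale. Its median was 0.33 and its quartiles were -0.18 and 0.82. The median over the other leaf-abundant genes was 0.15, and over all rows it was -0.0034. The difference was above 0 for 77 of the 119 (64.7%), for 66.5% of the other leaf-abundant genes and for 49.7% of all rows. Every C. rubella bud library lay above every C. grandiflora one for 27 of the 119 module genes and below for 7. Over all rows these shares were 12.6% and 13.3%. Differences of at least 2-fold were called higher for 15 and lower for 4 of the 95 tested module genes. Over all tested genes these shares were 2.4% and 4.15%. Such counts were not made for the other leaf-abundant genes, so they do not show a trait particular to the module.

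**Figure D5:**
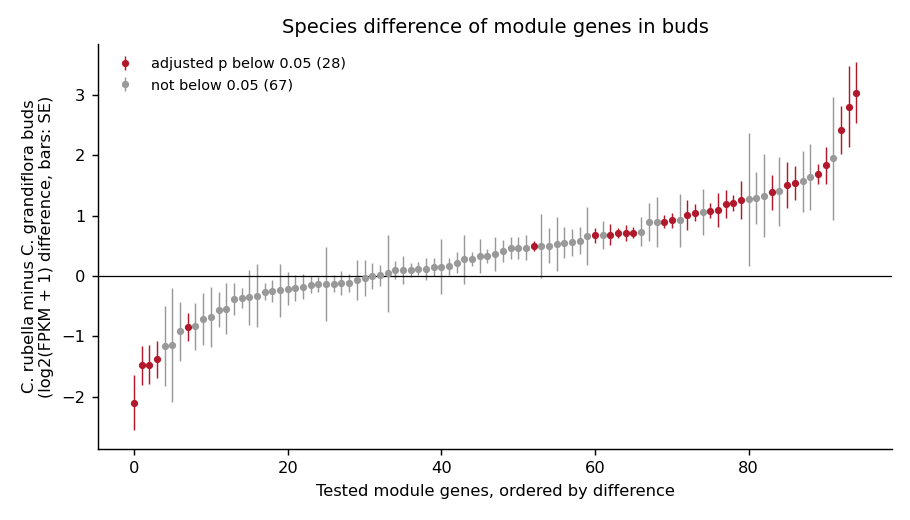
Difference of C. rubella minus C. grandiflora buds in log2(FPKM + 1) (vertical, points with SE bars) for the 95 tested module genes, ordered by their difference (horizontal). Red points passed an adjusted p of 0.05 in limma (28 genes), grey points did not (67 genes). Red points lie between -2.10 and 3.04, most of them above 0.

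The largest increase was in Carubv10014707m (scaffold 3, 1286818 to 1288008). It had 19.4, 3.52, 18.4 and 6.55 FPKM in C. rubella buds and 0.50, 0.98, 0 and 0 FPKM in C. grandiflora buds, where the 0.50 of bud 1 stands in a column that has 0.5 in place of 0. The groups do not overlap, and the difference was 3.04 (SE 0.50, limma adjusted p = 0.00535). Its level in the leaf libraries ranged from 63.5 through a median of 462 to 878 FPKM. Carubv10006117m (scaffold 7, 17170319 to 17171080), in the scaffold 7 run, had 211, 294, 77.2 and 213 FPKM in C. rubella buds and 25.4, 6.60, 28.1 and 74.0 FPKM in C. grandiflora buds. The groups were separated by a narrow margin, and the difference was 2.81 (SE 0.67, limma adjusted p = 0.0197). Without C. rubella bud 2 it was 2.57 and did not pass (limma adjusted p = 0.0523).

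Both of the largest decreases were in the scaffold 2 run. Carubv10021232m (scaffold 2, 12115951 to 12116415) had 4.29, 1.08, 1.01 and 1.82 FPKM in C. rubella buds and 5.70, 12.9, 7.85 and 24.6 FPKM in C. grandiflora buds. The species difference was -2.10 in log2 units, with an SE of 0.46 (limma adjusted p = 0.0135). Its leaf values ran from 232 through 1339 to 9827 FPKM. Carubv10021237m (scaffold 2, 12108502 to 12109118) had 2.56, 1.39, 1.54 and 1.97 FPKM in C. rubella buds and 2.96, 10.9, 9.29 and 6.99 FPKM in C. grandiflora buds. The log2 difference of this gene was -1.48 (SE 0.33, limma adjusted p = 0.0147). In leaf its values ran from 1562 through 3118 to 36191 FPKM. In both genes the species do not overlap, and C. grandiflora bud 1 lies closest to C. rubella. When the spread was estimated from all 18 libraries, neither passed (limma adjusted p = 0.260 and 0.312). The next largest called decrease was nearly the same size and lay on scaffold 4. It was that of Carubv10024304m, at -1.47 (SE 0.33, limma adjusted p = 0.0148). This gene did not pass with all 18 libraries either (limma adjusted p = 0.389).

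The differences of the 15 genes in the 3 longest runs were as follows, and 3 of the 15 passed the test. In the scaffold 7 run all 6 differences were above 0, from 1.27 to 2.81, and 1 of them passed the test. The smallest, that of Carubv10006003m, fell to 0.29 without C. rubella bud 2. In the scaffold 2 run 5 of 6 were below 0, from -2.10 to 0.16, and 2 passed, both lower. With 1 bud library left out at a time, the sign was not stable for Carubv10021234m (-0.75 to 0.18). The same held for Carubv10021298m (-0.17 to 0.48). In the scaffold 3 run all 3 were below 0, from -0.92 to -0.23, and none passed, with limma adjusted p from 0.206 to 0.727. These values rest in part on C. grandiflora bud 3: without it the differences were 0.25 for Carubv10014907m, -0.27 for Carubv10014903m and -0.53 for Carubv10014906m. As means, the scaffold 7 run summed to 612 ± 265 FPKM in C. rubella and 149 ± 78.1 FPKM in C. grandiflora buds. The scaffold 2 run summed to 193 ± 101 FPKM in C. rubella and 251 ± 99.6 FPKM in C. grandiflora buds. The scaffold 3 run summed to 248 ± 78.1 FPKM in C. rubella and 434 ± 308 FPKM in C. grandiflora buds (SD, n = 4 each). Whether the runs differ from one another in this contrast was not tested.

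The module's medians by library were also set side by side, although single genes differed in both directions. The median over the 119 genes of the library's level as a percentage of the leaf mean was 0.941%, 1.13%, 0.829% and 0.951% in C. rubella buds 1 to 4. It was 0.475%, 0.531%, 0.618% and 0.675% in C. grandiflora buds 1 to 4. All 4 C. rubella values exceed all 4 C. grandiflora values. The medians of the other leaf-abundant genes lay on the same side of 0 in every library, nearer to 0 except in C. grandiflora bud 3. The median deviation from a gene's own mean over the 8 buds, on the log2 scale, was 0.22, 0.14, 0.13 and 0.12 for the module and 0.11, 0.08, 0.08 and 0.05 for the other genes in C. rubella buds 1 to 4. In C. grandiflora buds 1 to 4 it was -0.24, -0.23, -0.06 and -0.09 for the module and -0.04, -0.10, -0.08 and -0.07 for the other genes. Whether the module's medians differ from those of the other genes was not tested.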

How the data were processed

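The authors deposited 1 table of FPKM values with 19350 gene rows and 18 library columns, and the file headers place its coordinates on build CR v1 JGI. Bowtie, TopHat and Cufflinks are named in the submitters' processing notes. Versions, settings and the scaling of the columns are not stated there. Columns were matched to libraries by plant name, and none was left over. The labels give each library its own plant and no batch.

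The species fit took the 8 bud libraries as log2(FPKM + 1), kept genes with 1 FPKM in at least 4 of them, and used limma 3.58.1 (R 4.3.3) with a moderated, trended variance. P-values were adjusted by Benjamini-Hochberg over all 16923 genes, with a threshold of 0.05. The pseudocount makes differences of low genes too small. The fit was first tried on simulated normal values, with changes placed only in genes of higher bud level. It recovered 73% of changes of 1 log2 unit and 94% of those of 2 log2 units, with 10 false among 177 calls. Genes as low in buds as many module genes were not covered. Leaf spread, neighbours and shared coordinates were described without a test. Depth, and so the precision it gives, is unknown.

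The members and lists were chosen with earlier results of these data known. Genes were named by rule. The naming rule took the 15 highest leaf means, the 5 largest called species differences per direction, and the 3 largest and 3 smallest leaf SDs. It also took genes within 3 rows of another member and the 3 on each side of the threshold. Of the 5 per direction, 2 are printed in full, since the IDs carry no names. Lists by role, tissue markers and sequence motifs could not be used without an annotation.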

Additional observations from a re-analysis of the deposited data

Results flagged for a closer look

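In 129 sets of libraries (the named module genes in each group, and the module's share of the FPKM sum), a library stood far from the rest of its group in 19. The cut-off would take about 1 set in 20 if values were normal and sets independent. Some of these genes were named for a large leaf SD, and all share the same libraries, so the 19 cannot be compared with that rate. In C. rubella buds, Carubv10006008m had 34.6 FPKM in bud 3 against 135 or more in the others, and Carubv10014903m had 132 FPKM in bud 2 against 64.8 or less. Bud 1 was apart for Carubv10017894m (264 FPKM against 225 or less), Carubv10021234m (19.9 FPKM against 4.66 or less) and Carubv10014138m (0.97 FPKM against 0.73 or less). Other C. rubella cases lie at the listed floor: Carubv10020799m was 0 in bud 4 against 0.52 or more, Carubv10023857m was 0 in bud 2 against 0.30 or more, and Carubv10020946m had 0.5 in bud 1, whose column has 0.5 in place of 0. In C. grandiflora, bud 3 was high for Carubv10014907m (270 FPKM against 82.7 or less), Carubv10024304m (85.4 FPKM against 33.6 or less) and Carubv10014138m (1.67 FPKM against 0.79 or less).

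In leaf, leaf 10 stood above the rest for Carubv10007875m (74954 FPKM against 25607 or less), Carubv10006008m (20215 against 12126), Carubv10014903m (94726 against 49862) and Carubv10024304m (60504 against 23584). Leaf 3 did so for Carubv10020799m (5137 FPKM against 1224 or less) and Carubv10027472m (1264 against 24.8), leaf 7 for Carubv10021237m (36191 against 11101) and leaf 9 for Carubv10021662m (1286 against 517).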

How the results depend on the processing

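No alternative changed the sign of a called species difference of a named gene. Of the 36 named genes tested, 15 were called, and 5 of those not called changed sign under some alternative. Over 636 values under alternatives for the 36, 601 kept their side of the threshold, 26 no longer passed and 9 newly passed. A fit of all 18 libraries called 1545 genes in place of 4053, with 14 module genes higher and 0 lower (26 and 2 at an unadjusted limma p below 0.05); the cause was not tested. Leaving out rows that share coordinates gave 15 higher, with 72 members tested, and a filter of 5 FPKM gave 2 lower, with 60 members tested. Without each bud library in turn, 2824 to 4089 genes were called, 19 to 30 module genes higher and 4 to 6 lower. The median leaf SD was 0.74 to 0.84 without each leaf library, 0.80 after upper quartile scaling (0.48 for the other genes) and 0.73 from interquartile ranges (0.42). The rule gave 66 genes at 1/100, 165 at 1/30, 159 with a leaf mean of at least 50 FPKM, 99 at 200, 110 with medians (105 of the 119), 87 after upper quartile scaling (all among the 119), 136 with C. grandiflora and 108 with C. rubella buds alone, 119 with 0.5 set to 0, and 106 with shared rows summed, an alternative chosen after seeing the data. No paired analysis was possible because the labels give the plants of the 2 species no shared replicate numbers, and bud against leaf was not tested.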

Other observations

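Some module genes were uneven among the buds of 1 species. Carubv10021136m (scaffold 2, 1403080 to 1404123) had 27.0, 19.0, 0.76 and 7.71 FPKM in C. rubella buds and 0.55, 0, 0.73 and 0.41 FPKM in C. grandiflora buds. Carubv10027457m (scaffold 8, 8380593 to 8381478) had 2.07, 2.55, 22.5 and 16.6 FPKM in C. rubella buds and 11.5, 22.0, 18.5 and 18.9 FPKM in C. grandiflora buds, with leaf values from 188 to 9022 FPKM. Both were chosen after their values were seen.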
